A study of Rattus norvegicus with 8 samples.

Results

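The 10 genes described here are the AP-1 subunits Fos, Fosb, Fosl1, Fosl2, Jun, Junb and Jund, the zinc finger factors Egr1 and Egr2, and Ier2. They were chosen by name among the 31699 rows of the deposited table of length-scaled transcript abundance (TPM). Each of the 10 had 1 row, and all 10 were among the 13103 genes with a mean of at least 1 TPM over the 8 samples. RNA-seq was performed on annulus fibrosus cells (AFCs) of Sprague Dawley rats, cells of the outer ring of the intervertebral disc, grown in F12/DMEM with serum. All 8 samples received cyclic mechanical stretch (CMS) and a lentivirus. This was either the empty hairpin vector pLVX-shRNA-Puro (Lv-Ctrl, n = 4) or the vector with a short hairpin RNA against the mechanosensitive ion channel Piezo1 (Lv-Piezo1, n = 4). The comparison asks which transcripts differ when Piezo1 is targeted in stretched cells. The study's methods describe harvest after more than a day of stretch, so these are not levels minutes after its onset. Unstretched cells were not analysed here, so the values say nothing on a response to CMS itself. The study's methods describe annulus tissue of several rats pooled for each cell isolation and biological repeats as samples, while the labels give a replicate number only.

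FOS and JUN proteins pair through a leucine zipper to form AP-1, which binds DNA at a short palindromic site. JUN proteins can pair among themselves, FOS proteins need a JUN partner, and FOSL1 and FOSL2 lack the strong activation domain of FOS and FOSB. EGR1 and EGR2 are zinc finger factors restrained by the corepressors NAB1 and NAB2, and IER2 is a small nuclear protein. Many genes of this class are switched on within minutes by MAP kinase, calcium and serum signals, and the mRNAs of such genes are short-lived. These signals act through SRF, its ternary complex partners ELK1, ELK3 and ELK4, and CREB. In tendon and annulus fibrosus, EGR1 is known for its part in collagen gene expression and AP-1 for that in matrix metalloproteinase genes.

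The promoters of Egr1 and Egr2 are shown because the transcripts of these paralogs went in opposite directions, and both hold an SRF element at the same distance from the start. The RefSeq promoter table (assembly GRCr8) held 8 of the 10 genes, all but Fos and Jun. The 250 bases upstream of the start of each were searched on both strands for the CArG box, the binding element of SRF, for the full cAMP response element (CRE) TGACGTCA, for its core TGACG, and for the AP-1 site (TGACTCA or TGAGTCA). The CArG box was matched as CC, then 6 letters of A or T, then GG, and variants with a mismatch were not searched. In this form it was found in 2 of the 8 promoters, against 1.5% of the 33469 promoters of the same length in the table. The 250 bases before the start of Egr1 (GRCr8, chr18:26736828-26737077, plus strand) hold 2 CArG boxes, in capitals, that begin 105 and 83 bases before the start.
Egr1: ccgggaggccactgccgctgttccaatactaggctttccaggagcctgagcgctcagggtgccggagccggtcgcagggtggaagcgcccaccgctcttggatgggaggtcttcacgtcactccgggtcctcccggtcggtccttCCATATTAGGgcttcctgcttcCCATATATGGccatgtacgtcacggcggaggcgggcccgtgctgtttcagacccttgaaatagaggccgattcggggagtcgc
The 30 bases from 88 to 59 bases before the start of each gene, with the CArG box and the CRE core (read on the minus strand) in capitals, are set side by side for Egr1 (GRCr8, chr18:26736990-26737019, plus strand) and Egr2 (GRCr8, chr20:21054500-21054529, minus strand).
Egr1: gcttcCCATATATGGccatgtaCGTCAcgg
Egr2: tcagtCCATATATGGgcagcgaCGTCAcgg
Of these 30 bases, 22 are identical, the CArG box among them. The CRE core was present in 6 of the 8 promoters and in 18.2% of all promoters, the full CRE in 2 of the 8, those of Jund and Ier2, and in 1.59% of all (the core counts within it), and the AP-1 site in 0 of the 8 and in 4.05% of all. A match is a description of the letters and shows no binding.

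The samples were first checked against their labels. The targeted transcript, Piezo1 (ENSRNOG00000056786), averaged 30.1 ± 2.67 TPM under the Lv-Ctrl label and 39.4 ± 1.75 TPM under the Lv-Piezo1 label (SD over 4 libraries), which goes against a knockdown at the transcript level in these libraries. A check of the hairpin that the study describes was not analysed here. Groups are therefore named by their labels, and every direction below compares the library set labelled Lv-Piezo1 with the set labelled Lv-Ctrl. Over the tested genes the median log2 fold change of the deposited TPM was 0.14 toward Lv-Piezo1, which median-ratio scaling of the samples brought to -0.02. The changes below are given on the deposited TPM and, where scaling matters, after it. Sequencing depth cannot be read from TPM and is unknown here. Standard errors of fold changes come from the spread within both groups of 4 samples, with information from all tested genes.

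Markers of the labelled cells were present, with Col1a1 at 3282 and 5835 TPM and Dcn, a small proteoglycan, at 1456 and 519 TPM on average in the samples labelled Lv-Ctrl and Lv-Piezo1. Of the 10 annulus fibrosus and fibroblast markers, 1 was called higher and 2 lower. Over all tested genes 4.91% were called higher and 2.76% lower. The summed TPM of the 10 smooth muscle and pericyte markers was 442 to 451 in the samples labelled Lv-Ctrl and 4551 to 4722 over the Lv-Piezo1-labelled ones. Of the 8 tested, 6 were called higher, among them Mcam (7.17 and 62.2 TPM). Cspg4 (29.5 and 51.1 TPM) and Pdgfrb (106 and 118 TPM) were higher but not called. Notch3 (0.18 and 1.47 TPM) and Rgs5 (0.163 and 0.258 TPM) were too low to be tested. Of the 8 macrophage and leukocyte markers, Adgre1 and Cd163 were listed at 0 in all samples and Ptprc averaged at most 0.0025 TPM. Cd68 rose from 0.955 to 12.3 TPM, and Cd14 averaged 20.9 and 25.8 TPM. Of the 7 endothelial markers, 6 averaged below 1 TPM, among them Pecam1 (0.0975 and 0.15 TPM). Egfl7, the 1 tested, averaged 29.5 and 30.7 TPM and was not called. Chondrocyte markers had 1 of 3 tested called higher, Comp (0.738 and 2.86 TPM). Acan averaged 31.6 and 47.1 TPM and was not called, and Col2a1 stayed under 0.5 TPM. Nucleus pulposus markers had 1 of 2 tested called higher, Cd24, with Tbxt and Shh listed at 0. Neuron and Schwann markers had 1 of 2 called higher and 1 lower, with Sox10 listed at 0, and 0 of the 3 red blood cell markers in the table were tested. The part of these differences in the values below was not tested. In bulk samples, fewer cells of a type and less RNA per cell cannot be told apart.

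Across the 10 genes, a call required an adjusted p below 0.05 together with a log2(TPM + 1) difference of 1 or more, with limma and p-values adjusted by Benjamini-Hochberg across every tested gene. Only Egr2 was called, as higher, so that 1 of 10 was called against 7.67% of all tested genes (4.91% higher and 2.76% lower). Most differences were smaller than this threshold. On the adjusted p alone 6 of 10 passed, against 58.2% of tested genes. Fos, Fosb, Jun and Egr1 fell (4 of 10, against 16.3% of tested genes that were lower) and Fosl1 and Egr2 rose (2 of 10, against 41.9% that were higher), while Fosl2, Junb, Jund and Ier2 did not pass. The verbs rose and fell are used below for genes that passed this adjusted p. The median log2 fold change was -0.20 for the 10 genes and 0.14 for all tested genes, and 8 of the 10 lay below that median. After median-ratio scaling 8 of the 10 were lower at an adjusted p below 0.05, against 29.2% of tested genes, and 1 was higher, against 26.7%. These counts describe the 10 genes and no test sets them apart from other genes.

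**Figure D1:**
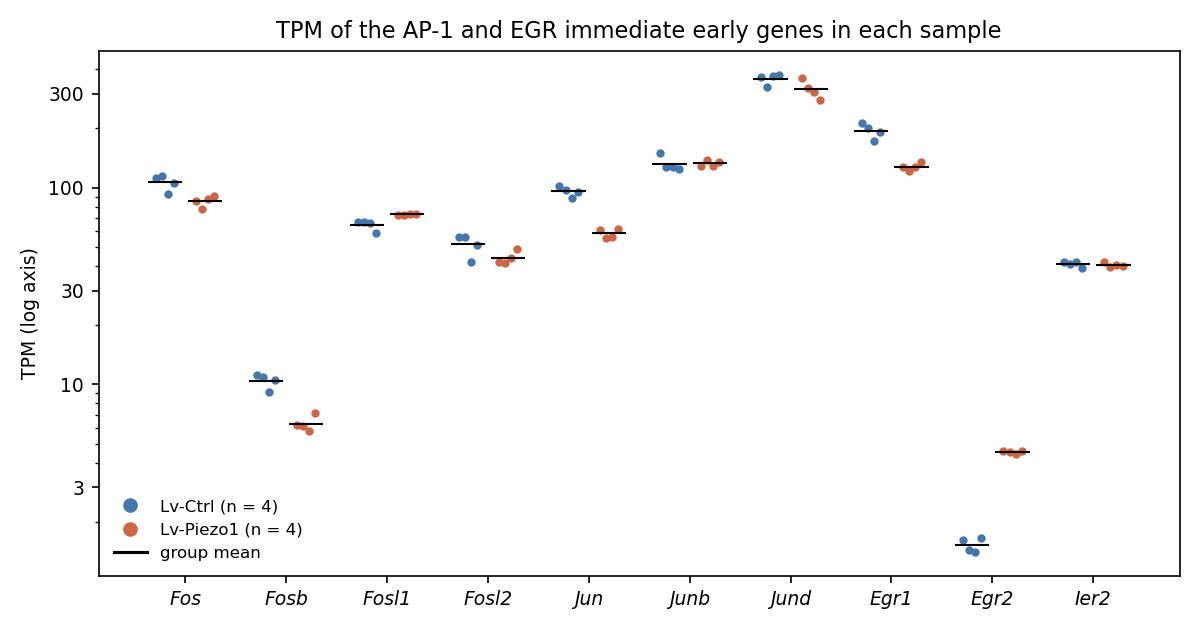
TPM of the 10 genes in each sample on a log axis, with Lv-Ctrl in blue, Lv-Piezo1 in orange and the group mean as a black line (n = 4 each). The groups are apart for Fos, Fosb, Fosl1, Jun, Egr1 and Egr2 and overlap for Fosl2, Junb, Jund and Ier2.

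The FOS family showed falls of Fos and Fosb beside a small rise of Fosl1. Fos (ENSRNOG00000008015), the founding AP-1 partner of JUN, measured 112, 115, 93.1 and 106 TPM over Lv-Ctrl-labelled libraries 1 to 4 and 85.8, 78.0, 87.8 and 91.2 TPM over the Lv-Piezo1-labelled ones. The lowest Lv-Ctrl sample lay just above the highest Lv-Piezo1 sample. Its mean was 19.5% lower, a fall by 0.31 on the log2 scale (SE 0.07, adjusted p = 0.0053 from limma). Fosb (ENSRNOG00000046667), which encodes a strong activator and a shorter splice form, had 11.1, 10.9, 9.14 and 10.5 TPM over Lv-Ctrl-labelled libraries 1 to 4 and 6.19, 6.15, 5.77 and 7.17 TPM over the Lv-Piezo1-labelled ones. All of its Lv-Piezo1 values lay below all of its Lv-Ctrl values. The mean of Fosb was 39.3% lower, with a log2 fold change of -0.64 (SE 0.08, adjusted p = 1.3e-04 from limma).

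Fosl1 (ENSRNOG00000020552), also called Fra-1, which accumulates in growing and migrating cells, went the other way. It measured 66.7, 67.2, 65.9 and 58.6 TPM over Lv-Ctrl-labelled libraries 1 to 4 and 72.8, 72.9, 73.8 and 73.2 TPM over the Lv-Piezo1-labelled ones. The Lv-Piezo1 samples differed by about 1 TPM and all lay above the Lv-Ctrl samples. The log2 fold change of Fosl1 was 0.18 (SE 0.05, adjusted p = 0.0082 from limma), close to the median of all tested genes, and median-ratio scaling brought it to 0.0036 (adjusted p = 0.96; 0.0073 to 0.96 over the alternatives). For Fosl2 (ENSRNOG00000068412), or Fra-2, an AP-1 subunit with roles in bone and skin matrix, the Lv-Ctrl-labelled libraries 1 to 4 had 56.3, 56.3, 42.1 and 51.2 TPM and the Lv-Piezo1-labelled ones 41.9, 41.5, 43.9 and 48.8 TPM. Its groups overlapped through library 3 labelled Lv-Ctrl. The log2 fold change of Fosl2 was -0.21 (SE 0.09, 95% CI -0.43 to 0.00047, adjusted p = 0.081 from limma), and without that replicate it was -0.31 (adjusted p = 0.0037; 0.0016 to 0.19 over the alternatives). With all samples, Fosl2 also passed at -0.39 after median-ratio scaling (adjusted p = 0.0016) and at -0.32 after quantile normalization (adjusted p = 0.012).

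Within the JUN family, Jun fell and its relatives Junb and Jund did not pass the test. Jun (ENSRNOG00000026293), the JUN subunit activated by the kinase JNK, measured 102, 97.4, 88.9 and 95.3 TPM over Lv-Ctrl-labelled libraries 1 to 4 and 60.9, 55.6, 56.3 and 61.5 TPM over the Lv-Piezo1-labelled ones. The groups were far apart, with a gap wider than the range of either. Its mean was 38.9% lower, and its log2 fold change was -0.70 (SE 0.05, adjusted p = 4.4e-06 from limma). This was the lowest among the 10 genes on the deposited TPM with a pseudocount of 1. With a pseudocount of 0.1, Fosb was at -0.712 and Jun at -0.709.

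Junb (ENSRNOG00000067725), a weaker activator that can restrain JUN, had 149, 127, 127 and 125 TPM over Lv-Ctrl-labelled libraries 1 to 4 and 129, 138, 129 and 135 TPM over the Lv-Piezo1-labelled ones. Library 1 labelled Lv-Ctrl was the highest of all 8 and the groups overlapped. The log2 fold change of Junb was 0.01 (95% CI -0.12 to 0.14, adjusted p = 0.91 from limma), and it turned to -0.17 after median-ratio scaling (adjusted p = 0.028; 0.028 to 0.99 over the alternatives). Jund (ENSRNOG00000019568), the JUN subunit that many resting cells express, measured 366, 324, 368 and 375 TPM over Lv-Ctrl-labelled libraries 1 to 4 and 359, 319, 306 and 279 TPM over the Lv-Piezo1-labelled ones. Library 2 labelled Lv-Ctrl and library 1 labelled Lv-Piezo1 made the groups of Jund overlap. Its log2 fold change was -0.19 (SE 0.08, 95% CI -0.36 to -0.01, adjusted p = 0.065 from limma). Leaving out either of these samples brought Jund past the threshold, at -0.23 without Lv-Ctrl replicate 2 (adjusted p = 0.030) and -0.25 without Lv-Piezo1 replicate 1 (adjusted p = 0.013; 0.010 to 0.15 over the alternatives). Jund also passed at -0.36 after median-ratio scaling (adjusted p = 0.010), and quantile normalization gave -0.16 (adjusted p = 0.11).

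The EGR paralogs moved in opposite directions. Egr1 (ENSRNOG00000019422) measured 212, 201, 173 and 192 TPM over Lv-Ctrl-labelled libraries 1 to 4 and 127, 121, 128 and 134 TPM over the Lv-Piezo1-labelled ones. No Lv-Piezo1 sample reached the lowest Lv-Ctrl sample. The mean of Egr1 was 34.3% lower, with a log2 fold change of -0.60 (SE 0.06, adjusted p = 3.5e-05 from limma). Egr2 (ENSRNOG00000000640), or Krox20, known from hindbrain segments, myelinating Schwann cells and tendon, was the lowest of the 10 genes, with 1.61, 1.44, 1.41 and 1.65 TPM over Lv-Ctrl-labelled libraries 1 to 4. Over Lv-Piezo1-labelled libraries 1 to 4 it had 4.61, 4.56, 4.41 and 4.59 TPM, well above every Lv-Ctrl sample and with little spread. The mean of Egr2 was 2.97 times as high, with a log2 fold change of 1.13 (SE 0.08, adjusted p = 2.3e-06 from limma). A log2(TPM + 1) difference understates the change of a gene this low. It was 1.52 with a pseudocount of 0.1, 1.01 after median-ratio scaling and 0.91, below the threshold, after quantile normalization (adjusted p at most 2.4e-04 over the alternatives).

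Egr1 and Egr2 were set against each other within each sample, where scaling of the sample has no effect. This ratio was chosen after the values had been seen and is given without a test. Egr1 was 132, 139, 123 and 116 times Egr2 over Lv-Ctrl-labelled libraries 1 to 4 and 27.5, 26.6, 29.0 and 29.3 times Egr2 over the Lv-Piezo1-labelled ones. The paralogs Egr3 and Egr4 stayed below 1 TPM and were not tested. Of the corepressors, Nab2, itself induced by EGR factors, rose from 59.2 ± 3.03 to 77.5 ± 1.46 TPM (SD, n = 4 each; log2 fold change 0.38, SE 0.04, adjusted p = 5.3e-05 from limma), and Nab1 did not pass the test (log2 fold change 0.14, adjusted p = 0.23 from limma).

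Ier2 (ENSRNOG00000067274) had almost the same level in all 8 samples, with 41.7, 40.9, 41.9 and 39.1 TPM over Lv-Ctrl-labelled libraries 1 to 4 and 41.7, 39.6, 40.3 and 40.0 TPM over the Lv-Piezo1-labelled ones. The groups overlapped over most of their range. Its log2 fold change was -0.02 (95% CI -0.10 to 0.07, adjusted p = 0.71 from limma), which became -0.19 after median-ratio scaling (adjusted p = 0.0065; 0.0065 to 0.90 over the alternatives). Ier2 also passed at -0.13 after quantile normalization (adjusted p = 0.016 from limma). With 70 relabelings of the libraries, an exact two-sided permutation test gave p = 0.0286, the lowest value reachable with 4 against 4, for Fos, Fosb, Fosl1, Jun, Egr1 and Egr2. For Jund it gave p = 0.0571, for Fosl2 0.0857, for Ier2 0.514 and for Junb 0.886 by the same exact permutation test. The groups did not overlap for 6 of the 10 genes, against 54.2% of tested genes. This held for 4 genes that were lower, against 14.5% of tested genes, and for 2 that were higher, against 39.8%.

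**Figure D2:**
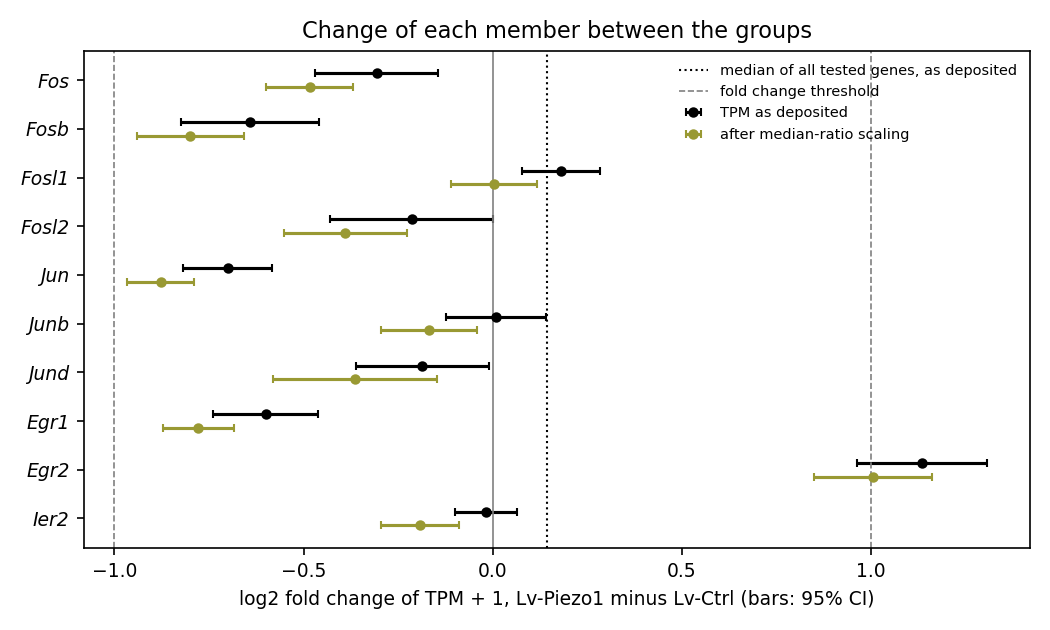
Log2 fold change of each gene with its 95% confidence interval, on the deposited TPM (black) and after median-ratio scaling (olive), with the median of all tested genes (0.14) dotted and the fold change threshold dashed. Jun, Fosb, Egr1 and Fos lie below 0 in both, Egr2 lies above, and whether Fosl1, Fosl2, Junb, Jund and Ier2 pass an adjusted p of 0.05 depends on the scaling.

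TPM is given per transcript length, so levels can be set beside each other. In the samples labelled Lv-Ctrl the order of mean levels was Jund (359 TPM), Egr1 (194), Junb (132), Fos (106), Jun (95.8), Fosl1 (64.6), Fosl2 (51.5), Ier2 (40.9), Fosb (10.4) and Egr2 (1.53). Among neighbours in this order, the samples of Fos and Jun overlapped and the others did not. In the samples labelled Lv-Piezo1 the order was Jund (316 TPM), Junb (133), Egr1 (128), Fos (85.7), Fosl1 (73.2), Jun (58.6), Fosl2 (44.0), Ier2 (40.4), Fosb (6.32) and Egr2 (4.54). Here Junb overlapped with Egr1 and Fosl2 with Ier2. Egr1 thus stood above Junb in every Lv-Ctrl sample and overlapped with it in the Lv-Piezo1 samples, and Jun stood above Fosl1 in every Lv-Ctrl sample and below it in every Lv-Piezo1 sample.

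The make-up of each family was compared as shares of its summed TPM, which do not depend on how a sample is scaled. Fosl1 held 27.8 ± 2.39% of the FOS family in the samples labelled Lv-Ctrl and 35.0 ± 1.42% over the Lv-Piezo1-labelled ones (SD, n = 4 each). Fos went from 45.7 ± 1.03% to 40.9 ± 1.10% and Fosb from 4.47 ± 0.149% to 3.02 ± 0.220%, while Fosl2 held 22.0 ± 1.35% and 21.0 ± 0.790%. In the JUN family, Jun went from 16.4 ± 1.06% to 11.6 ± 0.927%, Junb from 22.5 ± 1.46% to 26.3 ± 2.10%, and Jund held 61.1 ± 2.24% and 62.2 ± 2.80%.

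The groups did not overlap in the shares of Fos, Fosb, Fosl1 and Jun (exact two-sided permutation test, p = 0.0286 each, the smallest p possible), but over the 8 measures compared the Benjamini-Hochberg adjusted p was 0.0571, above 0.05. For Junb the exact permutation p was 0.0571 (adjusted 0.0914), and for Fosl2, Jund and the ratio of the FOS sum to the JUN sum the adjusted p was 0.419, 0.657 and 0.657. The summed FOS level was 0.396 and 0.413 times the summed JUN level in the samples labelled Lv-Ctrl and Lv-Piezo1 (geometric means). Without Fosl2 and Jund, the shares of Fos, Fosb, Fosl1 and Jun had an adjusted p of 0.0343 (exact permutation test). The unadjusted p stayed at the smallest possible value, fewer measures were adjusted for, and the share of Junb repeated that of Jun among them. The lower adjusted p therefore shows no stronger shift. Over all alternatives, this one and the full families without single samples, the adjusted p was 0.0343 to 0.114. With Fosl2 and Jund left out, Junb is the complement of Jun in its family, so its share gives no separate result. Unequal change shifts such shares and does not tell which subunit changed.

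**Figure D3:**
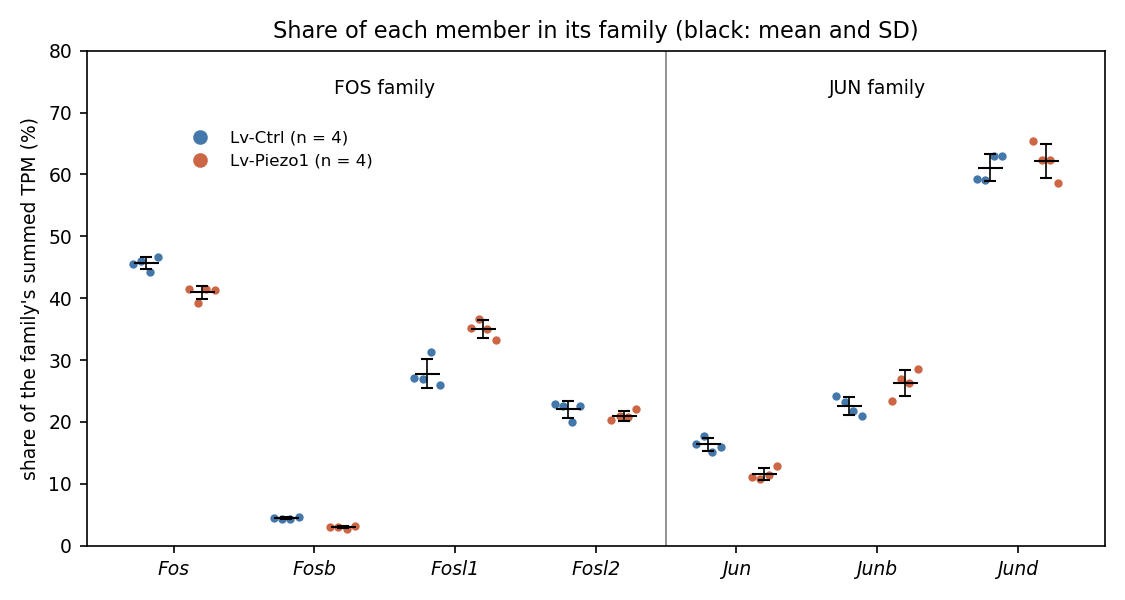
Share of each subunit in the summed TPM of the FOS or the JUN family in percent, per sample (points, n = 4 each) with mean and SD in black. The share of Fosl1 is higher and those of Fos, Fosb and Jun are lower in every sample labelled Lv-Piezo1 than in every sample labelled Lv-Ctrl.

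The standard deviation around the group means on the log2 scale lay above that of the median tested gene for 4 of the 10, from the 4.12th percentile for Ier2 to the 74.4th for Fosl2. In library 1 labelled Lv-Ctrl all 10 genes lay above their group mean, and in library 3 labelled Lv-Ctrl 6 of the 10 had the lowest value of the group. In the samples labelled Lv-Piezo1, replicate 4 was highest for 5 genes and replicate 2 lowest for 5. The same samples stand high or low for several genes at once, so the 10 genes are not independent readings of a sample.

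The genes with the profile most like that of a member over the 8 samples were looked for among 9052 genes with a mean of at least 5 TPM, by the root mean square difference of centred log2(TPM + 1) values. Foxf1, a forkhead factor, was nearest to Egr1 (0.020, with a median of 0.389 over the candidates), from 77.6 to 50.1 TPM, followed by Ltbp1, a latent TGF-beta binding protein (0.031), and Boc, a hedgehog coreceptor (0.031). Gpc1, the heparan sulfate proteoglycan glypican-1, was nearest to Jun (0.029), from 215 to 134 TPM, followed by Schip1 (0.036) and Mxd4, a MAX partner that opposes MYC (0.038). Ehbp1 (0.021) and App, the amyloid precursor protein (0.034), were among the nearest to Fos. The match is a description over 8 samples, chosen from many candidates.

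Upstream of these genes, the SRF and CREB list held no called gene on the deposited TPM. Of its 13 tested genes, 8 rose and 1 fell on the adjusted p alone, against 41.9% and 16.3% of all tested genes, with a median log2 fold change of 0.28 against 0.14 for all tested genes. Srf, the factor that binds the CArG box, rose from 14.3 ± 0.894 to 23.5 ± 1.14 TPM, and its actin-sensing partner Mrtfa rose from 29.3 ± 1.57 to 43.8 ± 0.962 TPM (SD, n = 4 each). Crem, which includes the repressor ICER and is itself induced by cAMP, fell from 35.8 ± 1.12 to 18.2 ± 0.232 TPM (log2 fold change -0.94, SE 0.04, adjusted p = 8.3e-08 from limma). After median-ratio scaling Crem was called, at -1.11. Srf, Mrtfa and Crem were chosen after their values were seen. Among 20 tested MAP kinases, 1 was called higher, 9 rose and 4 fell on the adjusted p alone (median 0.13). Over all tested genes these shares were 4.91%, 41.9% and 16.3%. The called kinase was Mapk12, a p38 kinase of muscle, from 5.16 ± 0.712 to 12.8 ± 0.961 TPM (log2 fold change 1.16, SE 0.09, adjusted p = 5.6e-06 from limma), and at 0.97 it was under the fold change threshold after quantile normalization.

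Of 15 tested feedback inhibitors of MAP kinase signaling, 1 was called higher, 1 lower, and 7 rose and 3 fell on the adjusted p alone (median 0.13). Over all tested genes these shares were 4.91%, 2.76%, 41.9% and 16.3%. Spry1, an inhibitor of receptor tyrosine kinase signaling, measured 194, 195, 178 and 178 TPM over Lv-Ctrl-labelled libraries 1 to 4 and fell to 43.0 ± 1.19 TPM over the Lv-Piezo1-labelled ones (SD, n = 4), a log2 fold change of -2.09 (SE 0.04, adjusted p = 1.5e-09 from limma). Dusp2, a nuclear phosphatase of MAP kinases named after its values were seen, was the gene called higher, from 1.21 ± 0.154 to 5.75 ± 0.775 TPM (SD, n = 4 each).

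The other immediate early genes did not follow a common direction. Of 26 tested, 2 were called higher and 1 lower, and 15 rose and 7 fell on the adjusted p alone (median 0.27 against 0.14 for all tested genes). Over all tested genes these shares were 4.91%, 2.76%, 41.9% and 16.3%. Ccn2, or CTGF, a secreted matricellular target of YAP and SRF, rose from 1444 ± 87.2 to 4611 ± 95.2 TPM (log2 fold change 1.68, SE 0.04, adjusted p = 7.3e-09 from limma), and Ier5l rose from 25.8 ± 1.45 to 58.4 ± 3.36 TPM (1.15, SE 0.06, adjusted p = 3.0e-07), or by 0.97 after median-ratio scaling, under the fold change threshold. Sik1, a CREB-induced kinase, fell from 10.8 ± 1.45 to 4.74 ± 0.460 TPM (-1.03, SE 0.10, adjusted p = 2.7e-05 from limma; SD, n = 4 each), and was under the fold change threshold at -0.97 without Lv-Ctrl replicate 2 and -0.99 without Lv-Piezo1 replicate 2. Nr4a1, a nuclear receptor induced by calcium and cAMP and chosen after its values were seen, fell from 433 ± 31.0 to 264 ± 5.54 TPM, a log2 fold change of -0.71 beside the -0.70 of Jun. Its relatives, also named after their values were seen, went both ways, with a fall of Nr4a2 (-0.68) and a rise of Nr4a3 (0.47).

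Among 12 tested bZIP proteins that can pair with AP-1 subunits, 1 was called higher and 2 lower, and 4 rose and 6 fell on the adjusted p alone (median -0.17). Over all tested genes these shares were 4.91%, 2.76%, 41.9% and 16.3%. Maf, a large bZIP factor, was called lower, from 115 ± 10.7 to 46.5 ± 2.59 TPM (log2 fold change -1.28, SE 0.07, adjusted p = 6.4e-07 from limma; SD, n = 4 each). The called rise was that of Batf3 at low level, from 0.385 to 1.83 TPM, named after its values were seen, and it was 0.94, under the fold change threshold, after median-ratio scaling. Atf3, a stress-induced AP-1 partner also chosen after its values were seen, fell from 33.0 ± 0.937 to 22.1 ± 0.681 TPM.

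Of 18 tested classical AP-1 target genes, 5 were called higher and 3 lower, and 9 rose and 5 fell on the adjusted p alone (median 0.18). Of all tested genes 7.67% were called (4.91% higher and 2.76% lower), 41.9% rose and 16.3% fell. After median-ratio scaling 6 genes of this list were called, without Hmox1 (0.85) and Vegfa (0.94), both named after their values were seen. With that scaling 981 of all 13103 tested genes were called. The 3 called lower were the matrix proteases Mmp13 (collagenase-3), from 888 ± 57.3 to 227 ± 14.3 TPM, Mmp10 (stromelysin-2), from 18.7 ± 1.26 to 4.30 ± 0.170 TPM, and Mmp3 (stromelysin-1, named after its values were seen), from 659 ± 17.9 to 232 ± 5.33 TPM (SD, n = 4 each). Their log2 fold changes were -1.96, -1.89 and -1.5, with adjusted p-values from limma of 2.1e-08 or less. Mmp9, a gelatinase, rose from 4.50 ± 0.532 to 24.4 ± 1.31 TPM (2.21, SE 0.08, adjusted p = 3.6e-08 from limma) and the metallothionein Mt2A rose from 1146 ± 113 to 3527 ± 82.5 TPM (1.63, SE 0.06, adjusted p = 7.7e-08). These genes are also controlled by other factors.

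Of 13 tested classical EGR target genes, 2 were called higher, and 9 rose and 2 fell on the adjusted p alone (median 0.51 against 0.14). Over all tested genes these shares were 4.91%, 41.9% and 16.3%. Fn1, which encodes fibronectin, rose from 1940 ± 242 to 4908 ± 297 TPM (log2 fold change 1.35, SE 0.09, adjusted p = 2.0e-06 from limma), and Icam1, an adhesion molecule, from 76.5 ± 2.82 to 164 ± 2.88 TPM (1.09, SE 0.03, adjusted p = 1.9e-08; SD, n = 4 each). After median-ratio scaling Fn1 alone of this list was called, at 1.17, with Icam1 at 0.91. Scx, the tendon factor scleraxis, rose from 30.1 ± 5.05 to 56.8 ± 10.5 TPM and was chosen after its values were seen.

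**Figure D4:**
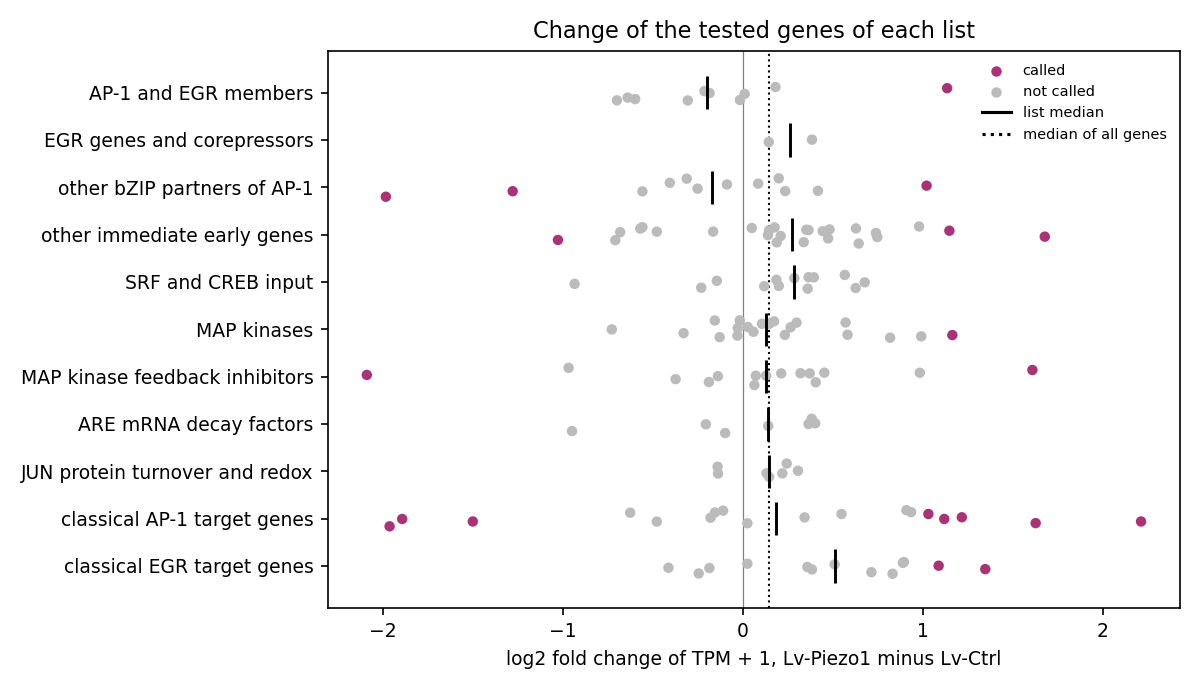
Log2 fold change of each tested gene (points, called genes in purple) in the AP-1 and EGR genes and the related lists, with the list median as a black bar and the median of all tested genes (0.14) dotted. The AP-1 and EGR genes (median -0.20) and the other bZIP partners (-0.17) have medians below 0, and the EGR targets have a median of 0.51.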

How the data were processed

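The authors deposited 1 table of TPM with a column for each of the 8 samples, and group means that were not used. According to the paper's methods, adapter-containing, poly-N and low-quality reads were discarded, HISAT2 placed the remainder on the rat genome, and StringTie assembled transcripts. The submitters' processing notes name DESeq2 and mm10, a mouse build, whereas the identifiers in the table are those of rat genes. The paper's methods name FPKM, and how TPM was made is not given in the sources used here. A count test cannot be used on TPM, and depth is unknown.

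The 13103 genes averaging 1 TPM or more were kept and put on the log2(TPM + 1) scale, and limma 3.58.1 (R 4.3.3) compared the groups (linear model without a block, empirical Bayes with a trend, Benjamini-Hochberg adjustment over all tested genes). Calls needed an adjusted p below 0.05 with a log2 fold change of 1 or more in either direction. For single genes and family shares, labels were permuted exactly, two-sided. Lists are described by counts and medians, without a set test. The members, lists and tests were chosen with earlier results of these data known, and the lists were written from general knowledge. Named genes are the 10 members, Piezo1, up to 2 rises and 2 falls per pathway list among called genes with a mean of at least 5 TPM and groups that do not overlap, and the nearest profiles to Fos, Jun and Egr1. Some genes that this rule names are not reported here. Named outside this rule, with their values known, are the cell type markers, Egr3, Egr4, Nab1, Nab2 and Zfp36. Other genes are said in the text to be picked with their values in view. P-values measure the spread between samples, which may be partly technical.

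As alternatives, the following were tried: 0.1 as pseudocount, no filter or a mean of at least 5 TPM, median-ratio scaling, quantile normalization, a blocking term for the replicate number, leaving out mitochondrially encoded genes, untrended moderation, no fold change threshold, families without Fosl2 and Jund, and leaving out each sample in turn.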

Additional observations from a re-analysis of the deposited data

Results flagged for a closer look

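Of 48 groups of 4 values checked for a sample far from the others (24 named genes in each group), 3 held such a sample, and chance flags about 1 in 20 groups. Fosl1 had 58.59 TPM in replicate 4 labelled Lv-Ctrl, below the next value of 65.87 TPM. Junb had 149.41 TPM in replicate 1 labelled Lv-Ctrl, above the next value of 127.47 TPM. Ccn2 had 4467.79 TPM in replicate 2 labelled Lv-Piezo1, below the next value of 4655.18 TPM.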

How the results depend on the processing

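Over 16 alternatives each, Fos, Fosb, Jun and Egr1 kept their direction and an adjusted p below 0.05, as did Egr2 over the 15 alternatives that test it. Of the 10 genes, 1 was called in the main fit (Egr2, higher), 0 with quantile normalization, 0 with a mean of at least 5 TPM, which leaves Egr2 out, and 6 without the fold change threshold (2 higher and 4 lower). Over all tested genes, 1005 were called (644 higher and 361 lower), 981 with median-ratio scaling and 948 with quantile normalization. With a mean of at least 5 TPM 628 were called (372 higher), and without the fold change threshold 7626 (5489 higher and 2137 lower). Leaving out each sample in turn gave 996 to 1038 called genes (626 to 681 higher and 346 to 386 lower) and 1 called member each time. Of the called genes, 64.1% were higher on the deposited TPM, 51.4% with median-ratio scaling and 48.8% with quantile normalization. Junb turned from 0.0089 to -0.17 with median-ratio scaling, -0.039 with quantile normalization and -0.011 without mitochondrially encoded genes, and its value ranged from -0.017 to 0.069 when single samples were left out. It passed the threshold with median-ratio scaling only. The difference in the share of Jund (1.05 percentage points) ranged from -0.049 to 2.24 when single samples were left out. In these scaled fits the cause was not tested.

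Samples with the same replicate number did not deviate together (correlations of -0.058 to -0.012 across genes, with 0 of 8 samples correlating best with their own number), so the numbers were not used as pairs. The study's methods treat cells of 1 isolation under different treatments as a repeat, so isolations may be shared between the groups, but the labels do not tie samples to isolations. With the replicate block 1004 genes were called (644 higher and 360 lower), and the same number of members (1). Depth is unknown, so genes of low TPM such as Egr2 carry a counting error that cannot be stated.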

Other observations

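Factors that act on the mRNAs and proteins of immediate early genes went in both directions. Of 7 tested factors that bind AU-rich elements of short-lived mRNAs, 0 were called by limma, and 4 rose and 1 fell on the adjusted p alone (median log2 fold change 0.14, as for all tested genes). Zfp36l1, an mRNA decay factor chosen after its values were seen, was the gene that fell, with means of 399 ± 62.6 and 204 ± 12.3 TPM (SD over 4 libraries each). Its log2 fold change was -0.95 (SE 0.11, adjusted p = 6.9e-05 from limma) on the deposited TPM and -1.13 after median-ratio scaling. Its relative Zfp36 rose from 76.4 ± 4.05 to 98.5 ± 2.45 TPM. Of 7 tested genes for turnover and redox control of JUN protein, 0 were called by limma, and 2 rose and 1 fell on the adjusted p alone (median 0.14). Beside both lists, 7.67% of all tested genes were called, 41.9% rose and 16.3% fell.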
